A study of Mus musculus with 30 samples.

Results

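The regions described here are stretches of the mouse genome that carried an H3K27ac peak in 2 lung adenocarcinoma cell lines, CK1750 and Tnm2, under DMSO, and in neither line under the G9a/Glp inhibitor UNC0638 (G9ai). Overlapping or touching intervals of the 4 deposited H3K27ac peak lists were merged on chromosomes 1 to 19 and X. Regions were selected on these measured peak calls: a merged region was kept when it overlapped a peak of both DMSO lists and no peak of either UNC0638 list. Of 37671 merged regions, 1118 met this rule. They were 6.28% of the 17802 regions with a peak in both DMSO lists. "Lost" below means this pattern of listed and unlisted peaks. It is not a measured change in read number, because the lists give no reads, and the rule itself fixes the absence under UNC0638.

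The study compared CK1750 and Tnm2 cells treated with DMSO or with UNC0638 at 1 µM, and asked how G9a/Glp inhibition changes chromatin. The H3K27ac libraries comprised 3 samples of CK1750 DMSO, 2 of CK1750 UNC0638, 2 of Tnm2 DMSO and 2 of Tnm2 UNC0638. These are not all separate replicates: the labels give the CK1750 DMSO samples 2 replicate numbers, with 2 runs of the first, and both CK1750 UNC0638 samples the replicate number 2. All cells were grown in DMEM with 10% FBS, and the labels name no other drug or allele. The other 21 samples of the series, H3K9me2 libraries and inputs, were not analysed here. The labels tie all samples of a group to the same list, 1 for each of the 4 groups, so no list can be set against a replicate, and no comparison between treatments below has a test. Each treatment was seen in 2 lines only, and each line is 1 culture model of the tumour.

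H3K27ac is the acetylation of lysine 27 on histone H3, which marks active promoters and enhancers. Enhancers carry it away from the transcription start site (TSS), and it is gained or lost as enhancers switch on or off. G9a (Ehmt2) and its partner Glp (Ehmt1) place mono- and dimethylation on lysine 9 of the same histone, a mark of silent chromatin, and UNC0638 blocks their catalytic site. In lung adenocarcinoma, lineage factors such as NKX2-1 and FOXA and signal-dependent factors such as AP-1 and TEAD bind at distal enhancers.

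The central 300 bases of 6 lost regions are shown so that the sequences behind the motif shares can be read. They were taken from the higher-scoring lost regions. For AP-1 these were 2 regions without a near-identical copy elsewhere and the Slc25a37 region, the highest-scoring of all, which has 1 copy. For SP/KLF they were 2 promoter regions that overlap a TSS, and for TEAD 1 region away from promoters, without a copy or AP-1 letters. Every sequence is the plus strand of GRCm38.p6 (mm10), 5′ to 3′, and capitals mark the letters of the 1 motif for which the window is shown, TGANTCA for AP-1, GGGCGG for SP/KLF and GGAATG for TEAD, or their reverse complement, since both strands were searched. Letters of other motifs are left in lower case. A match is a description of the letters and not a measured binding site. The AP-1 match is shown in Trim3 (chr7:105621769-105622068), Usp3 (chr9:66606522-66606821) and Slc25a37 (chr14:69269742-69270041), the SP/KLF match in Snx1 (chr9:66124426-66124725) and Alkbh2 (chr5:114127636-114127935), and the TEAD match in Lasp1 (chr11:97804349-97804648).
Trim3: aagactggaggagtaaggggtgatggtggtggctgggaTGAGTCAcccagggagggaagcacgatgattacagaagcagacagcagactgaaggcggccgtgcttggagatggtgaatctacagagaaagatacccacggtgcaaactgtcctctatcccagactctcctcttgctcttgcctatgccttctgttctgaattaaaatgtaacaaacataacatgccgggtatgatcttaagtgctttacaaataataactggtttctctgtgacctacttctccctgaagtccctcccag
Usp3: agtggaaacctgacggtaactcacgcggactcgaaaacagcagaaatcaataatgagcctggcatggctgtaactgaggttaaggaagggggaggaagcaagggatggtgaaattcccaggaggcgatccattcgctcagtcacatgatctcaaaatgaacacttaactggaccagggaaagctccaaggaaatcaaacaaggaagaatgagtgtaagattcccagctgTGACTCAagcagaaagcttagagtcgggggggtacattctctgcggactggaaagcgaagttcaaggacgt
Slc25a37: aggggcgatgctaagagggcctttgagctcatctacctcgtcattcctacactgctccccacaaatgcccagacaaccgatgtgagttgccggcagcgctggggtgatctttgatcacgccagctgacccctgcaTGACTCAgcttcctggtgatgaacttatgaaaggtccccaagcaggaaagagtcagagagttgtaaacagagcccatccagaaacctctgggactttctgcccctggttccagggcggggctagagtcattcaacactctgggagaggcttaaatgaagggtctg
Snx1: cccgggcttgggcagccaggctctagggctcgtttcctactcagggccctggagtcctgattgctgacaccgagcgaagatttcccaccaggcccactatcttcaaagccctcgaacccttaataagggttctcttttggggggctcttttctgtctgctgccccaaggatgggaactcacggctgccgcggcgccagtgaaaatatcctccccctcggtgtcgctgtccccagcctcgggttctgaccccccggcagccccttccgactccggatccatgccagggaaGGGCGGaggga
Alkbh2: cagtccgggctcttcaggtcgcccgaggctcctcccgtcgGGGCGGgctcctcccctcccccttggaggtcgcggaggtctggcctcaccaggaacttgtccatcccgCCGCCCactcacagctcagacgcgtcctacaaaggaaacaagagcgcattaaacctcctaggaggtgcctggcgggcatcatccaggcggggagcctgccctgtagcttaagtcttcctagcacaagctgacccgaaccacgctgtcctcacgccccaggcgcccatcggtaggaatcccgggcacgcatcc
Lasp1: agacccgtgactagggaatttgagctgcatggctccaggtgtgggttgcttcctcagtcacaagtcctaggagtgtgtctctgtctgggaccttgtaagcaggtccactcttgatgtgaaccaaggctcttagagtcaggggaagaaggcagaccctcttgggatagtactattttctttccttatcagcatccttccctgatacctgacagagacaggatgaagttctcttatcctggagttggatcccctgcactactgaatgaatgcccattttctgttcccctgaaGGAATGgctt

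The Trim3, Slc25a37 and Lasp1 windows lie in introns, the Usp3 window is intergenic, and the Snx1 and Alkbh2 windows lie at promoters, taken as within 1 kb of an annotated TSS. The AP-1 letters began at base 39 of the Trim3 window, base 230 of the Usp3 window and base 136 of the Slc25a37 window, so none was at the window's centre. The Alkbh2 window held SP/KLF letters at bases 41 and 109, the Snx1 window at base 290, and the Lasp1 window held TEAD letters at base 291. Among all 37671 regions, 11.8% held the AP-1 letters, 21.9% the SP/KLF letters and 15.7% the TEAD letters in the same central window.

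The lost regions mostly scored low in both DMSO lists and were narrow as merged regions. The deposited score of a peak is −10 times the log10 of its MACS p-value, with a floor of 50, so it measures how clearly a peak stood out and not the amount of acetylation. In CK1750 DMSO the lost regions scored between 50.05 and 734.64, with a median of 69.9 and quartiles of 58.0 and 97.4. In Tnm2 DMSO they scored between 50.05 and 325.66, with a median of 81.1 and quartiles of 60.8 and 110. The 12885 regions with a peak in all 4 lists had medians of 462 in CK1750 DMSO and 406 in Tnm2 DMSO. The lost regions had a median width of 735 bp, with a range of 289 to 3585 bp, against a median of 1766 bp for regions in all 4 lists. Scores and widths of the DMSO lists decide in part which peaks can drop out, so these values describe the regions and test nothing.

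The lower of the 2 DMSO scores of a region had a median of 61.8 and a maximum of 302.15. It lay under 60 in 505 lost regions and at 100 or more in 104. Both scores were under 100 in 598 lost regions. The score was higher in CK1750 in 476 regions and higher in Tnm2 in 642. Across the lost regions the scores of the 2 lines were nearly unrelated, with a Spearman correlation of 0.067, whereas it was 0.781 across regions of all 4 lists and 0.571 across those of them that were distal and under 4 kb wide. These correlations run across regions, which are not independent replicates, and the lost regions span a narrower range of scores.

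**Figure D1:**
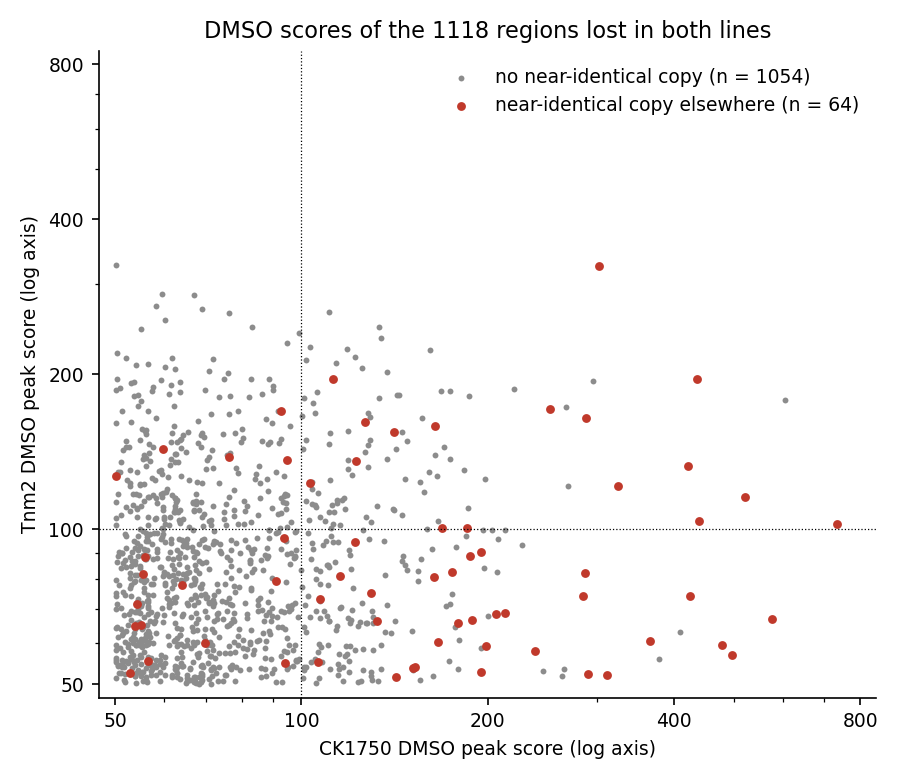
Peak score of each of the 1118 lost regions in CK1750 DMSO (x axis) and Tnm2 DMSO (y axis), both −10 log10 p on log axes, with dotted lines at 100. The 64 regions with a near-identical copy elsewhere in the genome are red, the other 1054 are grey, and the points show no common trend (Spearman correlation 0.067).

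Loss in both lines was concentrated at low scores. Of 4885 regions with a lower DMSO score of 50 to 100, 1014 were lost, or 20.8% (95% Wilson interval 19.6 to 21.9). Of 4060 regions at 100 to 200, 103 were lost, or 2.54%, and of 8857 at 200 or more, 1 was lost, in Slc25a37. These intervals and those below cover counting error only, and neighbouring regions are not independent. Among non-promoter regions 11.3% were lost, and the shares were 23.9% (22.5 to 25.3) at 50 to 100 and 3.51% (2.81 to 4.37) at 100 to 200. Among promoter regions 2.26% were lost, with 13.5% (11.8 to 15.3) at 50 to 100, 1.43% (0.982 to 2.07) at 100 to 200, and 0 of 6533 at higher scores. A count of 0 there allows at most a share of 0.0588%, the upper Wilson bound. The share lost was lower at promoters in both lower score classes.

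**Figure D2:**
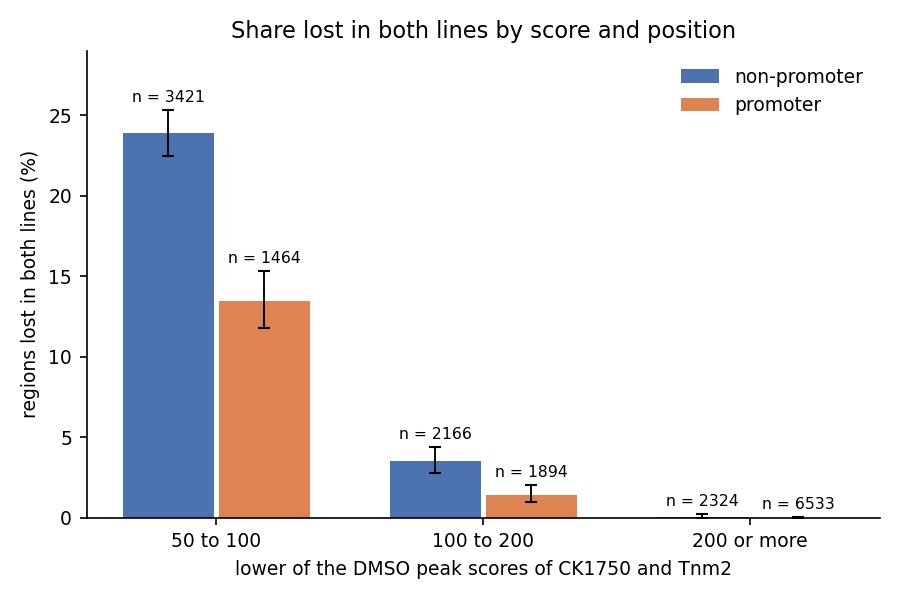
Share of regions with a peak in both DMSO lists that were lost (y axis, percent), by the lower of the 2 DMSO scores (x axis), for promoter and non-promoter regions. Bars are shares with 95% Wilson intervals and the number of regions is printed for each; the highest bar is 23.9%, for non-promoter regions scoring 50 to 100.

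The 4 lists differed in length, which sets the frame for these counts. The CK1750 lists held 27340 peaks under DMSO and 24592 under UNC0638, with median scores of 153 and 180. The Tnm2 lists held 30631 and 18789 peaks, with median scores of 140 and 119. Of the 17802 regions in both DMSO lists, 9.3% had no UNC0638 peak in CK1750 and 24.6% had none in Tnm2. Of all regions with a DMSO peak in the line, these shares were 23.2% in CK1750 and 43.4% in Tnm2. When each list was cut to the same number of its highest-scoring peaks, 287 of 13267 regions were lost, and with a score of at least 100 asked of every list 639 of 12931 were lost. The part of list length in the loss was not tested beyond these settings, and the number of reads behind each list is unknown.

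The strongest lost region by its lower score was intronic to Slc25a37, which encodes mitoferrin-1, the importer of iron into mitochondria. This region, chr14:69269201-69270582, scored 302.15 in CK1750 DMSO and 324.68 in Tnm2 DMSO and lay 14.5 kb from the TSS. UNC0638 peaks lay close by, 952 bp away in CK1750 and 143 bp away in Tnm2. An intronic region of Lasp1, an actin-binding adaptor, at chr11:97803707-97805290, scored 220.44 and 187.16, with UNC0638 peaks 356 bp away in CK1750 and 430 bp away in Tnm2. The region in Rapgef5, an exchange factor for Rap GTPases, at chr12:117588135-117589396, scored 295.83 and 194.11 and lay 68.6 kb from a TSS. That in Trim3, a ubiquitin ligase, at chr7:105621011-105622826, scored 267.32 and 172.38. The region at the Glul promoter, glutamine synthetase, at chr1:153898851-153899858, scored 186.7 and 181.06, with UNC0638 peaks 160 bp away in CK1750 and 256 bp away in Tnm2, so the window around this TSS still held a peak in both lines. In these 5 regions both lines scored well above the median of the lost regions. The other regions named for their scores lay at Sdccag8, a centrosomal protein, with 174.05 and 185.09, at Irf2bpl, with 161.57 and 223.02, at the promoter of Ccdc28b, with 148.38 and 148.02, and at the predicted genes Gm13288 and Gm11042, with 252.06 and 171.43 and with 133.53 and 246.63. Gm13288 had 13 near-identical copies.

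Some of the stronger lost regions had no UNC0638 peak of either line within 25 kb, which was the rule by which they were named. The promoter region of Snx1, a sorting nexin of the retromer, at chr9:66124101-66125050, scored 167.96 in CK1750 DMSO and 185.35 in Tnm2 DMSO. It was the only peak within 25 kb in either DMSO list, and neither UNC0638 list had a peak there. An intergenic region at chr10:47453484-47455112, whose nearest protein-coding gene Hace1 is 1875.65 kb away, scored 436.47 and 195.54. The others lay at Rapgef5, far from Zfhx4, with 145.34 and 154.63, at Cacnb2, a calcium channel subunit, with 137.28 and 137.09, and at Slco1a6, an organic anion transporter, with 288.82 and 164.17. The Hace1 region was 97.7% repeat-masked with 15 near-identical copies, and the Slco1a6 region was 100% masked with 23 copies. The Cacnb2, Rapgef5 and Zfhx4 windows were 81%, 79% and 64.3% masked, with no copy. The Zfhx4 region had 3 peaks within 25 kb in each DMSO list and the Rapgef5 region had 3 in Tnm2 DMSO, so these were not the only DMSO peaks of their surroundings.

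Near-identical copies elsewhere in the genome were more frequent among lost regions than among regions of all 4 lists. A copy was counted where at least 80% of the region aligned elsewhere in the genome with at least 95% identity. Of the lost regions 64, or 5.7% (4.5 to 7.2), had such a copy, against 157 of the 12885 regions in all 4 lists, or 1.2%. Copies were not confined to loss in both lines. They were in 24 of the 538 regions missing only in treated CK1750 and 70 of the 3261 missing only in treated Tnm2. At a lower score of 50 to 100 they were in 47 of 1014 lost regions and 16 of 418 missing only in treated CK1750. Seen the other way, 20.3% (16.2 to 25.1) of the 315 regions with a copy were lost and 6.03% (5.68 to 6.39) of the 17487 without one. At a lower score of 50 to 100 the shares were 37.3% (29.4 to 46.0) and 20.3% (19.2 to 21.5). At 100 to 200 they were 15.2% (9.6 to 23.3) and 2.20% (1.79 to 2.71). These intervals did not overlap in either class, and with the 2 repeat stretches described next left out the shares with a copy were 34.2% (26.1 to 43.5) and 8.60% (4.42 to 16.1).

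The lost regions with a copy scored a median of 164 in CK1750 DMSO and 79.99 in Tnm2 DMSO, against 68.9 and 81.2 for those without. They were also more often masked as repeats, with a median masked share of 54.3% against 8.67%. Of the 17 lost regions with a DMSO score of 300 or more, 16 had it in CK1750 and 2 in Tnm2, and 13 had a copy, but 6 of the 17 lay in the chromosome 6 array described next. Of the 12 regions with the highest lower score, 4 had a copy. Apoc2, which encodes an activator of lipoprotein lipase, had a region at chr7:19671675-19673442 with scores of 605.31 and 178.22 that was 94.7% masked but had no copy by this rule. How reads that fit several places were handled is not given in the sources used here, so the part of such reads in the scores was not tested.

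Several lost regions formed tandem arrays. The first, near 4932411N23Rik on chromosome X, held 9 lost regions over 20.2 kb from the first lost region to the last. The second held its lost regions over 122.8 kb of chromosome 6 between Ezh2, the H3K27 methyltransferase, and Pdia4, a disulfide isomerase of the endoplasmic reticulum. It also held 9, of which 8 had copies. A 200-base window of a chromosome 6 unit, chr6:47763369-47763568 on the plus strand of GRCm38.p6, is shown because its sequence recurs from unit to unit.
chromosome 6 array, 1 unit: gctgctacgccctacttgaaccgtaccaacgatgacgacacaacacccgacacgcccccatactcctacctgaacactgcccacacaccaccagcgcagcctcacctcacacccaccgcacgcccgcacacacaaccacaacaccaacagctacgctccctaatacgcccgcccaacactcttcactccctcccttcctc

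This window was identical in all 8 units with copies. Between the first and the last lost region of the X array CK1750 DMSO had 15 peaks and Tnm2 DMSO had 15, against 3 and 4 under UNC0638. These limits were set by the lost regions themselves, and peaks went on past the last one. In the next 10 kb CK1750 had 3 DMSO peaks and 1 UNC0638 peak, and Tnm2 had 7 and 6, with UNC0638 scores of up to 218.63 in Tnm2. The lost units of the X array scored 59.8 to 187.51 in CK1750 DMSO and 88.81 to 195.55 in Tnm2 DMSO, and the UNC0638 peaks between the first and the last scored 58.82 to 87.86 and 52.91 to 89.11. In the chromosome 6 array the lists had 17 peaks in CK1750 DMSO, 2 in CK1750 UNC0638, 14 in Tnm2 DMSO and 3 in Tnm2 UNC0638. Its limits were also set by the lost regions. In the next 10 kb each list had 1 peak, scoring 132.27 under DMSO and 144.04 under UNC0638 in CK1750, and 253.46 and 132.91 in Tnm2. The 5 units nearest Pdia4 scored 734.64, 438.61, 422.33, 324.62 and 290.99 in CK1750 DMSO, and 102.19, 103.87, 132.48, 121.3 and 52.28 in Tnm2 DMSO. The assembly has 50000 undetermined bases inside the chromosome 6 array. Units of an array share their sequence and are not independent of each other.

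A different kind of cluster lay in an intron of Zmiz1, a coactivator related to the PIAS proteins. Over 33.2 kb, chr14:25464934-25498118, 5 of 7 regions with a peak in both DMSO lists were lost, and none had a copy. The limits of this stretch were set by the lost regions themselves, so the 5 of 7 follows in part from the choice. Of all 15 such regions assigned to Zmiz1, 5 were lost and 7 had a peak in all 4 lists. The 5 scored 51.4, 88.14, 89.55, 56.4 and 88.03 in CK1750 DMSO and 62.82, 118.36, 80.28, 54.6 and 88.02 in Tnm2 DMSO. Strong peaks remained beside them. The highest score in the stretch was 1316.83 in CK1750 DMSO, 1394.93 in CK1750 UNC0638, 1713.39 in Tnm2 DMSO and 358.68 in Tnm2 UNC0638, and the lists had 9, 7, 10 and 4 peaks there in the same order. With 10 kb added on each side they had 13, 12, 14 and 7.

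**Figure D3:**
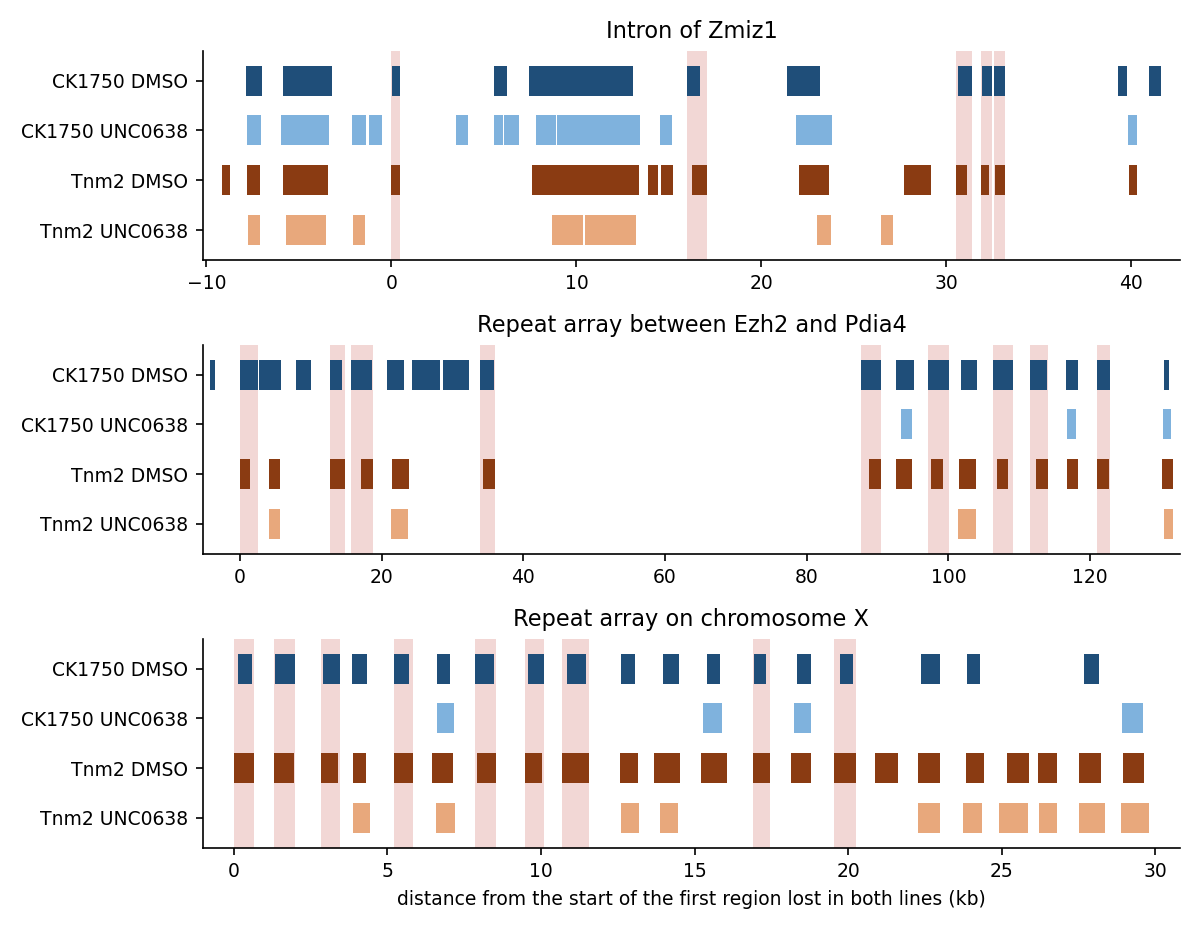
Peaks of the 4 lists (rows) across the Zmiz1 intron, the chromosome 6 array between Ezh2 and Pdia4, and the chromosome X array, by distance along the stretch (x axis, kb), with lost regions shaded pink. Between the first and last lost region of the X array there are 15 peaks in each DMSO list and 3 and 4 under UNC0638, and in the next 10 kb Tnm2 has 7 and 6; the blank middle of the chromosome 6 array is the assembly gap.

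Most lost regions were distal. Only 20.04% (17.8 to 22.5) lay at a promoter, against 62.6% of regions in all 4 lists, 45.6% of those missing only in treated Tnm2 and 20.3% of those missing only in treated CK1750. Over all 37671 regions the share was 34.8%. At lower scores of 50 to 100 the shares were 19.4% (17.1 to 22.0) of lost regions and 30.5% (28.2 to 32.8) of regions in all 4 lists, a smaller difference than over all scores. Introns held 56.2% of lost regions, intergenic sequence 34.3% and exons 9.5%. The median distance to the nearest protein-coding TSS was 18.1 kb, and 27.4% lay over 50 kb away. Away from promoters the lost regions were about as far from a TSS as other regions, with a median of 26.2 kb against 24.2 kb for regions in all 4 lists. By chromosome, the share lost ran from 5.06% on chromosome 11 to 9.17% (6.57 to 12.7) on the X chromosome, where the array adds 9 of 32.

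Of the 224 promoter regions lost in both lines, 172 lay at a protein-coding TSS, and these touched 187 genes. For 121 of these genes no TSS had an UNC0638 peak within 1 kb in either line. For 42 a TSS had such a peak in both lines, and 10 of these have a single TSS, as Glul does, so that the peak lay within 1 kb of the same TSS. Spag5, a mitotic spindle protein, scored 269.47 in CK1750 DMSO and 121.24 in Tnm2 DMSO, and Kif2c, a microtubule-depolymerising kinesin, scored 166.22 and 103.57. Mthfd1, an enzyme of folate metabolism, scored 182.89 and 130.5, and its nearest UNC0638 peaks were 112186 bp away in CK1750 and 112206 bp away in Tnm2. Gstm1, a glutathione transferase, scored 100.92 and 180.06. The DNA repair dioxygenase Alkbh2 scored 128.89 and 164.78. These 5 genes were chosen after their values were seen, for their known roles.

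Other promoter regions scored lower. Scgb1a1, the club cell secretory protein, had a promoter region at chr19:9087028-9088048 that scored 53.02 in CK1750 DMSO and 57.88 in Tnm2 DMSO, close to the floor of 50. The region at Krt7, a keratin of simple epithelia, scored 67.93 and 162, although its CK1750 peak lay more than 1 kb from the TSS, and its UNC0638 peaks lay 22657 bp away in CK1750 and 2588 bp away in Tnm2. A promoter region of Arhgef2, a guanine nucleotide exchange factor, scored 86.34 and 183.25, and one of Tcf7l2, a Wnt effector, scored 61.86 and 85.27. Both genes kept peaks at most of their TSSs. In each line 7 Arhgef2 TSSs had a peak within 1 kb under DMSO and 6 under UNC0638. For Tcf7l2 these were 9 and 8. The epithelial identity of the lines was visible in all 4 lists, since Cdh1, Krt8, Krt18 and Krt19 had a promoter peak in each, while Epcam and Cldn4 had none. Nkx2-1 had a promoter peak in all 4 lists, and Sftpc, Napsa and Hopx had none in any. Sftpb, a surfactant protein gene, had a promoter peak in Tnm2 UNC0638 only. None of 3 leukocyte and 3 endothelial markers had a peak in any list. Among 3 fibroblast markers Col1a1 had a peak in every list but Tnm2 UNC0638.

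The base composition of the lost regions varied with their place and score. Median GC content was 50.8%, against 57.7% for regions in all 4 lists. Away from promoters it was 50% in both, and at promoters it was 57.2% and 65%. CpG-rich sequence made up 11.4% of lost regions and 46.3% of regions in all 4 lists. At promoters alone the shares were 42.4% and 71.4%, and at promoters scoring 50 to 100 they were 43.1% and 46.1%. The SP/KLF letters were in 14.2% of lost regions and 39.4% of regions in all 4 lists, but away from promoters the shares were 8.6% and 10.6%. At promoters the SP/KLF shares were 36.6% and 56.5%, and at promoters scoring 50 to 100 they were 36.5% and 38.8%. ETS letters (CCGGAAG) were in 2.7% against 9.3%. At promoters alone they were in 7.1% and 13.1%. At promoters scoring 50 to 100 the ETS shares were 7.6% (4.7 to 12.2) and 9.4% (7.1 to 12.4), with overlapping intervals.

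The letters of AP-1, bound by Fos and Jun proteins, were in 12.3% (10.5 to 14.3) of lost regions, against 11.8% of all regions. Among distal regions of all 4 lists under 4 kb wide the share was 19.2%. Away from promoters and at scores of 50 to 100, AP-1 letters were in 13.7% (11.5 to 16.2) of lost regions and 17.7% (15.5 to 20.1) of regions in all 4 lists. TEAD letters were in 16.4% (14.02 to 19.1) and 21.5% (19.2 to 24.1). At scores of 100 to 200 the shares were 18.4% (11.3 to 28.6) and 17.95% for AP-1 and 19.7% and 20.7% for TEAD. The intervals for AP-1 overlapped in the lower class and those for TEAD fell just short of overlapping. Letters of NRF2 and small Maf proteins (TGACNNNGC) were in 14.04% against 14.23% of regions in all 4 lists. Of the 23 motifs searched, some of the longer ones were too rare to compare, with NF-kB in 2 lost regions, the CTCF core in 3 and the SRF core in 0 of 1118.

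**Figure D4:**
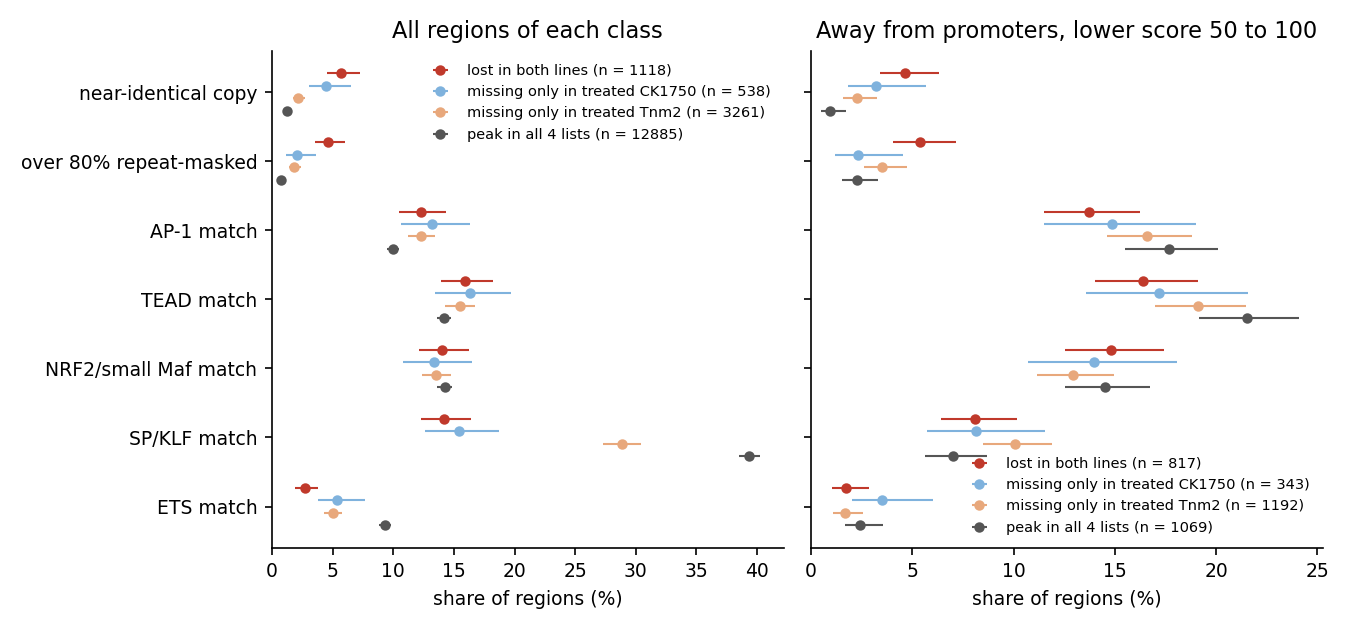
Share of regions (x axis, percent, 95% Wilson intervals) with a near-identical copy, over 80% masked sequence, or the letters of 5 motifs, for lost regions and 3 other classes, over all regions and over non-promoter regions scoring 50 to 100. Copies were in 5.7% of lost regions and 1.2% of regions in all 4 lists, and SP/KLF letters in 14.2% and 39.4%.

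A protein-coding TSS lay within 100 kb of 974 lost regions, and these were assigned to 895 nearest genes. Of these genes 840 had 1 lost region, 44 had 2 and 11 had 3 or more. A region of all 4 lists was assigned to 608 of the 895 genes (67.9%), and for 240 genes the lost regions were their only regions in both DMSO lists. These 2 counts are a description only, since the matching counts over all genes were not taken. In all, 16596 regions in both DMSO lists were assigned to 9984 genes. Outside the arrays, the genes with most lost regions were Zmiz1 with 5 of 15, Smad7 with 4 of 18 and Nav2 with 4 of 12. Smad7, an inhibitor of TGF-beta receptor signalling, kept 10 regions in all 4 lists, and its 4 lost regions scored 55.22 to 88.76 in CK1750 DMSO and 60.76 to 155.07 in Tnm2 DMSO. The 4 of Nav2, a neuron navigator protein, scored 50.44 to 92.82 and 56.71 to 114.76. Zfp804a, a zinc finger protein, lost all 3 of the regions assigned to it, which scored 166.35, 55.39 and 60.98 in CK1750 DMSO and 60.39, 81.89 and 101.92 in Tnm2 DMSO. Those scoring 166.35 and 55.39 were intergenic, 62.2 and 60.8 kb from the TSS. Their windows were 87.7% and 82.7% masked, and they had 9 and 5 near-identical copies. Only the region scoring 60.98 lay at the promoter. Ier5, an immediate early gene, lost 3 of 6.

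Lost regions were sorted by 12 lists of genes of pathways active in such tumours, and over all regions with an assigned gene 974 of 16596 were lost, or 5.87% (5.52 to 6.24). Near genes of the TGF-beta and BMP pathway, 12 of 108 regions were lost, or 11.1% (6.47 to 18.4). All 12 had a lower score under 100. They spanned the pathway, from the latent TGF-beta binding proteins Ltbp1 and Ltbp2 and the receptor Tgfbr2 to the signal transducers Smad1, Smad3 and Smad5 and the inhibitors Smad6, Smad7 and Tgif1. The Smad3 region scored 98.13 in CK1750 DMSO and 91.16 in Tnm2 DMSO, the Ltbp2 region 80.56 and 150.19, and the Tgfbr2 region 85.79 and 73.59. Smad3 and Tgfbr2 also kept 6 and 5 regions in all 4 lists, and the region at Ltbp2 was its only one. Smad7 gave 4 of the 12, and without it 8 of 90 were lost, or 8.89% (4.57 to 16.6), an interval that includes 5.87%. All 12 lay away from promoters, where 12 of 68 regions of the list were lost, or 17.6% (10.4 to 28.4), against 11.3% of all non-promoter regions. With a score of at least 100 asked of both DMSO lists, 0 of 80 regions of this list were lost, and with peak lists of equal length 0 of 82. Of the 12 gene lists this was the only one whose interval excluded 5.87%, and the intervals were not corrected for the number of lists.

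Near genes of iron handling and oxidative stress, 5 of 40 regions were lost, or 12.5% (5.46 to 26.1), an interval that includes the share over all regions. Besides Slc25a37 these were Nfe2l2, which encodes the stress regulator NRF2, with 85.65 and 114.78, its competitor Bach1 with 61.45 and 147.79, the cystine transporter Slc7a11 with 65.79 and 82.46, and Gclc, of glutathione synthesis, with 163.26 and 51.93. Near p53 and cell cycle genes 6 of 56 were lost, or 10.7%. They included promoter regions of the kinase Cdk2, with 113.28 and 86.18 and a CK1750 UNC0638 peak 21 bp away, of Ccnd3, a D-type cyclin, with 93.07 and 64.61, and of the factor E2f2, with 97.88 and 55.62. Under UNC0638, 5 of the 6 Ccnd3 TSSs had a peak within 1 kb in CK1750 and 4 in Tnm2. For Cdk2 these were 2 of 2 in CK1750 and 0 in Tnm2. Near epithelial and mesenchymal genes 4 of 48 were lost, or 8.33%. These were Cdh1, the epithelial cadherin, with 83.21 and 90.03 in an intron-located region, Krt7, the mesenchymal factor Twist2 with 65.2 and 82.17, and the receptor Fgfr1 with 71.38 and 59.46.

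The intervals of the other lists also included the share over all regions. Matrix and adhesion genes lost 6 of 92 regions (6.52%), among them regions of the integrin Itgav, with 110.85 in CK1750 DMSO and 264.32 in Tnm2 DMSO, and of the collagen Col1a1, with 100.56 and 143. Lung and gut epithelial transcription factors lost 7 of 117 (5.98%), including 2 regions of Runx2 and 2 of Runx1, and Ehf with 98.83 and 67.6. Actin cytoskeleton genes lost 6 of 110 (5.45%), including the small GTPase Cdc42 with 84.3 and 128.03 and 2 regions of the actin-binding protein Lima1. The Wnt list lost 3 of 71 and the MAPK list 3 of 86, the latter including Phlda1, with 71.85 and 131.29, and the phosphatase Dusp10, with 87.65 and 60.64. The AP-1 family lost 1 of 34, at Batf, the YAP/TEAD list 1 of 53, at the kinase Lats2, and the H3K9 methylation enzymes 1 of 31, at the demethylase Phf2. Of 5 regions near genes that the study linked to G9a, 1 was lost, in Anxa10, an annexin. The study chose those genes for their RNA response to G9a inhibition, so this count is not independent evidence. The Anxa10 region scored 53.68 and 55.05, close to the score floor, and a Tnm2 UNC0638 peak lay 1608 bp away. For Anxa10 the study reported higher RNA in tumour cells depleted of G9a, which is the other direction, in other cells.

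**Figure D5:**
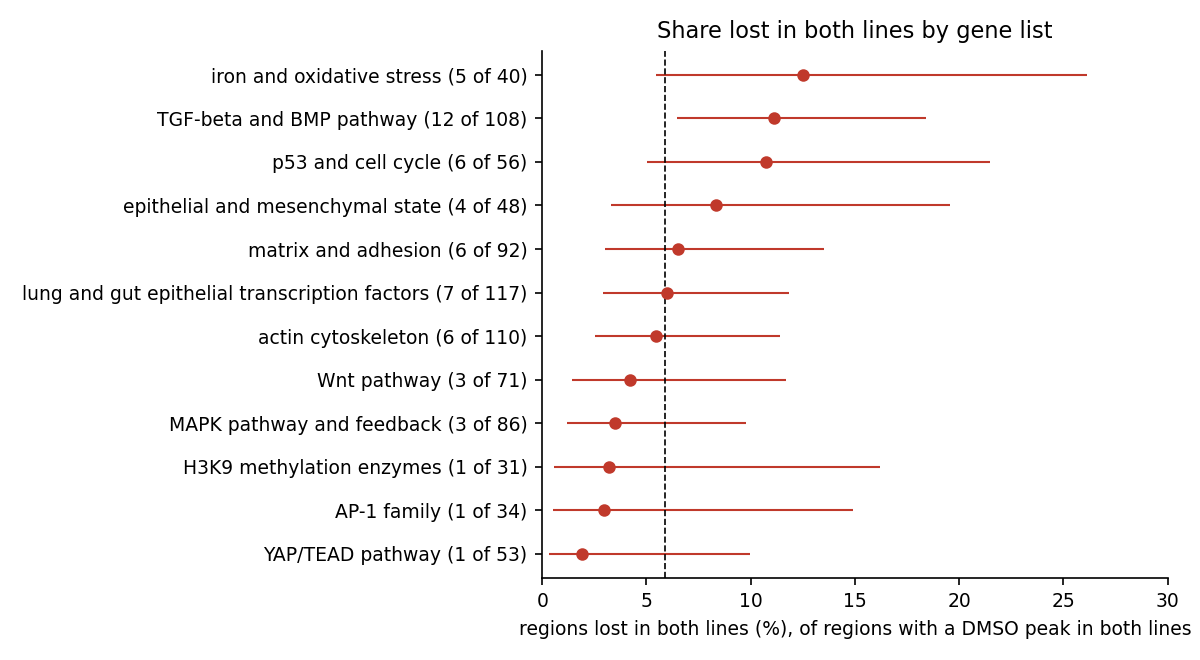
Share of regions lost (x axis, percent, 95% Wilson interval) among regions near genes of each of 12 lists, with the dashed line at the 5.87% of all regions with an assigned gene. The TGF-beta and BMP list, at 11.1% (6.47 to 18.4), is the one whose interval lies wholly above the line. Without Smad7 it is 8.89% (4.57 to 16.6). Intervals are not corrected for the number of lists.

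The surroundings of the lost regions differed between the lines. Within 100 kb on each side, CK1750 had a mean of 6.96 peaks per lost region under DMSO and 6.19 under UNC0638, so the number fell by 11.05%. The length covered by peaks rose from 7.47 kb to 8.19 kb. In Tnm2 the mean number was 8.11 under DMSO and 4.89 under UNC0638, so it fell by 39.6%, and the covered length went from 8.55 kb to 6.13 kb. Peaks were fewer under UNC0638 around 47.4% of the lost regions in CK1750 and 78.4% in Tnm2. Around regions of all 4 lists the mean number of peaks fell by 7.30% in CK1750 and by 37.4% in Tnm2, close to the values around the lost regions. The length covered by the whole lists also went from 28.5 Mb to 31.6 Mb in CK1750 and from 31.8 Mb to 22.9 Mb in Tnm2. With peaks scoring at least 100 only, the number around the lost regions in CK1750 fell by 5.38%.

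Many lost regions lay near an UNC0638 peak, whether or not that peak was also listed under DMSO. The median gap to the nearest UNC0638 peak of either line was 6020.5 bp. It was under 1 kb for 273 lost regions (24.4%) and under 10 kb for 663 (59.3%), while 84 lay 100 kb or more from any such peak. At the edge of the rule, the region at Prdx3, a mitochondrial peroxiredoxin, counted as lost with scores of 184.32 and 97.02 although a Tnm2 UNC0638 peak lay 3 bp away. Regions at Zfp53, Yipf1 and Plxna2 lay 5, 7 and 8 bp from a peak. Just outside it, a region at Grn, progranulin, with 71.3 and 75.71, was left out for an overlap of 6 bp, and one at Cldn18, the lung claudin, with 96.42 and 89.54, for an overlap of 20 bp. When UNC0638 peaks within 1 kb also counted as overlap, 845 regions were lost.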

How the data were processed

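H3K27ac ChIP-seq of CK1750 and Tnm2 cells under DMSO or UNC0638 was used, as 4 deposited peak lists, 1 for each line and treatment. The authors aligned reads to mm10 with Bowtie2 and called peaks with MACS 1.4.2. The deposited score of each peak is −10 log10 of the MACS p-value, so the calling cutoff is a floor of 50. Which libraries entered each list, whether input was the control, and how reads with several placements were treated are not given in the sources used here, and the replicate numbers in the labels are fewer than the replicates the study's text states. The files give no counts, so the depth per sample is unknown, and 1 list per group leaves no replicate, error or test between treatments. The study's own comparison of the lists by MAnorm was not repeated.

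Peaks on chromosomes 1 to 19 and X were merged where they overlapped or touched, with at least 1 bp counting as overlap. Promoters were within 1 kb of a TSS of GENCODE M21 (basic), and genes were assigned by the nearest protein-coding TSS within 100 kb. Sequences were read from GRCm38.p6. GC content, CpG content (CpG-rich: over 50% GC and an observed to expected ratio over 0.6), masking and the letters of 23 motifs were taken in the central 300 bases. Near-identical copies were found with minimap2 2.31 and samtools 1.23.1, with Python 3.11.15, pandas 2.3.3, numpy 2.4.6, scipy 1.17.1, pysam 0.24.0 and edlib for the rest. Shares carry 95% Wilson intervals. The merging, overlap and motif steps were tested on simulated data.

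The lost regions, gene lists and tests were chosen with earlier results of these data known. Regions were named by rule: the 12 with the highest lower DMSO score, the 6 highest at a protein-coding TSS, the 6 highest with no UNC0638 peak within 25 kb, up to 10 genes with at least 3 lost regions, and up to 4 genes of each list. Other genes in the text were chosen after their values were seen. Alternatives for the merging, overlap, score, list length, promoter window and sequence window were tried. Some items are not reported here.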

Additional observations from a re-analysis of the deposited data

Results flagged for a closer look

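The length covered by peaks within 100 kb of the lost regions moved in opposite directions in the 2 lines. It rose by 9.66% in CK1750, from 7.47 kb under DMSO to 8.19 kb under UNC0638, and fell by 28.4% in Tnm2, from 8.55 kb to 6.13 kb. Around regions of all 4 lists it rose by 16.1% in CK1750 and fell by 26.7% in Tnm2. The length covered by the whole lists moved the same way. It went from 28.5 Mb under DMSO to 31.6 Mb under UNC0638 in CK1750, and from 31.8 Mb to 22.9 Mb in Tnm2. The opposite directions were therefore not particular to the surroundings of the lost regions. With 1 list for each line and treatment, the difference between the lines was not tested.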

How the results depend on the processing

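No paired analysis was possible because there is 1 deposited list for each group, and leaving out a replicate was not possible for the same reason. Of 56 values recomputed under alternatives, 35 kept within the spread set for them and 21 moved. Only the changes in peak number around the lost regions could change sign, and none of those did. Counts, shares and GC content cannot be negative. The number of lost regions, 1118, became 639 with a score of at least 100 asked of all lists, 104 with it asked of the DMSO lists and 287 with lists of equal length. Each of these settings tests fewer peaks by construction. The settings that gave 639 and 287 also removed weak UNC0638 peaks, so they can count regions outside the 1118 as lost. The share at promoters, 20.04%, became 36.9%, 26.0% and 31.0% under these settings, 25.9% with a promoter window of 2.5 kb and 15.4% with protein-coding TSSs only. The share with AP-1 letters, 12.3%, became 18.3% with DMSO scores of at least 100, 7.78% and 21.1% in windows of 200 and 500 bases, and 8.50% with TGACTCA only. In the last 3 settings distal regions of all 4 lists gave 13.1%, 29.96% and 15.3%. Median GC content, 50.8%, became 53.3%, 52.5% and 52.7% under the score and list length settings, 50.3% with regions merged within 1 kb and 49.4% over whole regions. The number of peaks around the lost regions in CK1750 fell by 11.05% as reported and fell by 5.38% with peaks of at least 100. Apart from these settings' own construction, the cause was not tested. Leaving out lost regions with near-identical copies or over 80% masked sequence left 1054 and 1066, and leaving Smad7 out of the TGF-beta and BMP list took its share from 11.1% to 8.89%. These 3 settings were chosen after seeing the data.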
